A study of Drosophila melanogaster with 3 samples.

Results

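The proteasome subunit genes of Drosophila melanogaster are described here by where the zinc finger protein CG4424 was found at them in embryos. The members were the protein-coding genes whose symbol begins with Prosalpha, Prosbeta, Rpn or Rpt and goes on with a number, as the Ensembl annotation of the dm6 assembly names them. This rule gave 48 of 13945 protein-coding genes, of which 25 belong to the core particle (Prosalpha and Prosbeta) and 23 to the regulatory particle (Rpn and Rpt). By symbol, 32 are general subunit genes and 16 carry a T or an R after the number, the mark of paralogues that are known mainly from the male germ line. The rule used no measured value.

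All 3 samples form 1 group. They are biological replicates of chromatin immunoprecipitation followed by sequencing from whole, mixed-sex embryos of 0 to 16 h, taken from flies with a stable insertion in which GFP is fused to the C terminus of CG4424. Precipitation was with an antibody against GFP, after sonication to fragments of 200 to 800 bp, and all embryos carried the tagged protein. No list from embryos without the tag was used here, the labels do not say what drives the fusion gene, and whole embryos of this age mix many tissues and stages. The deposited lists give regions with a signal value and a summit, the base of highest signal. The optimal set, which the authors thresholded on agreement between replicates, has 6420 regions, and the relaxed list on pooled reads has 29056. The relaxed lists of replicates 1, 2 and 3 have 22198, 30000 and 29796 regions. A gene is called occupied here when an optimal summit lies within 500 bp of any of its annotated transcript starts. Read counts were not used, so the depth is unknown.

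The proteasome is the large protease that degrades ubiquitin-tagged proteins in the cytoplasm and nucleus. Its core particle is a barrel of alpha and beta rings, with the cutting sites on beta subunits inside, and the regulatory particle caps the barrel. In the regulatory particle, the base unfolds proteins with a ring of ATPases (Rpt) and the lid removes ubiquitin. Subunits are needed in fixed proportions, and the general genes are active in nearly all cells, while flies also carry duplicated subunit genes used in spermatogenesis.

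The DNA under the strongest summits, and at 2 genes used for contrast, reads as follows on dm6 in the direction of the proteasome gene (RefSeq sequence, annotated exons left out). Rpn3, Rpn5, Rpn11 and Prosbeta2 hold the 5 strongest optimal summits of the group, Prosalpha6 carries the palindrome TATCGATA, Prosbeta6 carries it without a summit, and Prosalpha6T is the testis-type paralogue of Prosalpha6. Capitals mark TATCGATA, the sequence bound by the factors DREF and BEAF-32, except at Rpn3, where they mark a repeated stretch.
Rpn3, chr2L:19051620-19051789, summit at base 150: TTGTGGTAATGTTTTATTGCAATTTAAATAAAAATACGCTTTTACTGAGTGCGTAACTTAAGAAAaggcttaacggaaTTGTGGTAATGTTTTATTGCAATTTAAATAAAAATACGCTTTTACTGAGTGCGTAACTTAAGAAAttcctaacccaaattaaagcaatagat
Rpn5, chr3R:5789080-5789328, stronger summit at base 150: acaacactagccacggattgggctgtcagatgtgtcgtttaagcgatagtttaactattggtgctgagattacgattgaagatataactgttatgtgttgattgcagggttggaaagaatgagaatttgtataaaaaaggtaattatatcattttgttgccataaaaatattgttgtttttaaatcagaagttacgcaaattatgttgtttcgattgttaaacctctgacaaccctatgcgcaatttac
Rpn5, chr3R:5789385-5789492, weaker summit at base 44: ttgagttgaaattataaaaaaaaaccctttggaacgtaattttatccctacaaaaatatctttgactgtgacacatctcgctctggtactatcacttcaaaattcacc
Rpn11, chr2L:5059854-5060152, minus strand, summit at base 150: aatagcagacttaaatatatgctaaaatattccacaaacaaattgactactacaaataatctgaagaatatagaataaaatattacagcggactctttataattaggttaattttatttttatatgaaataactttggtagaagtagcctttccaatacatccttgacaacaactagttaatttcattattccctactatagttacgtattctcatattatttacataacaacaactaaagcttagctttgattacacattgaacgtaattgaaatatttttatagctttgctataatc
Prosbeta2, chr3L:14999667-14999950, summit at base 144: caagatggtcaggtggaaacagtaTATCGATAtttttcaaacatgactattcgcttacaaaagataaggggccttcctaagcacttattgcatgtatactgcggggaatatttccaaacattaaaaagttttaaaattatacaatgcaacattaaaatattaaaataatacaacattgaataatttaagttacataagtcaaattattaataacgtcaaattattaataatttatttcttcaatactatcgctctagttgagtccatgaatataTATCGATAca
Prosalpha6, chr2L:10221217-10221350, summit at base 29: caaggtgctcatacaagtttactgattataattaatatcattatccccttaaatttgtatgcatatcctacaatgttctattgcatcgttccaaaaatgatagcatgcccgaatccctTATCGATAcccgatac
Prosbeta6, chr3L:16610419-16610568, minus strand, no summit: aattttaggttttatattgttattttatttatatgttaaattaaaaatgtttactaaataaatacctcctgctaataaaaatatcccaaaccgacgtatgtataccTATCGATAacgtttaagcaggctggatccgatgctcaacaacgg
Prosalpha6T, chr2L:13231889-13232038, no optimal summit: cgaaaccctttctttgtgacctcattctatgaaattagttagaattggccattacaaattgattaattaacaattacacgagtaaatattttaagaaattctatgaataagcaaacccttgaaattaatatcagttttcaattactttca

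CG4424-GFP was found at general subunit genes of both particles and at no testis-type paralogue in the optimal set. Of the 48 genes, 13 were occupied (27.1%, exact 95% binomial interval 15.3 to 41.8%, counting error only), against 24.9% of all protein-coding genes, so the family as a whole stood near the background. When regions also had to be among the strongest of both other replicates, it stood below it: 7 genes without replicate 1 (14.6%, against 21.0% of all coding genes) and 7 without replicate 2 (14.6%, against 20.8%). All 13 were general genes: 13 of 32 (40.6%, interval 23.7 to 59.4%), against 0 of 16 testis-type genes, which allows a share of up to 18.8%. The relaxed pooled list had a summit at 22 of the 48 genes (45.8%), again all general, against 50.5% of all coding genes. No test was made of these shares, since the design holds no second group and the genes were chosen as a family.

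Each replicate showed the split between general and testis-type genes. Among its 6420 strongest regions, replicate 1 had a summit at 16 general genes, replicate 2 at 11 and replicate 3 at 10, and each had one at 0 testis-type genes. The mean share of the 32 general genes was 38.54% ± 10.05 (SD, n = 3). All coding genes stood at 25.8%, 25.6% and 23.6% in the same lists, a mean of 24.98% ± 1.23. In the whole relaxed lists, a summit lay at 26, 26 and 27 of the 48 genes, where the background was 45.2%, 52.5% and 49.7%. These were 25, 25 and 24 of the general genes (77.1% ± 1.80) and 1, 1 and 3 of the testis-type genes (10.4% ± 7.22). The optimal set was drawn from the same replicates, so the lists are not independent of it.

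**Figure D1:**
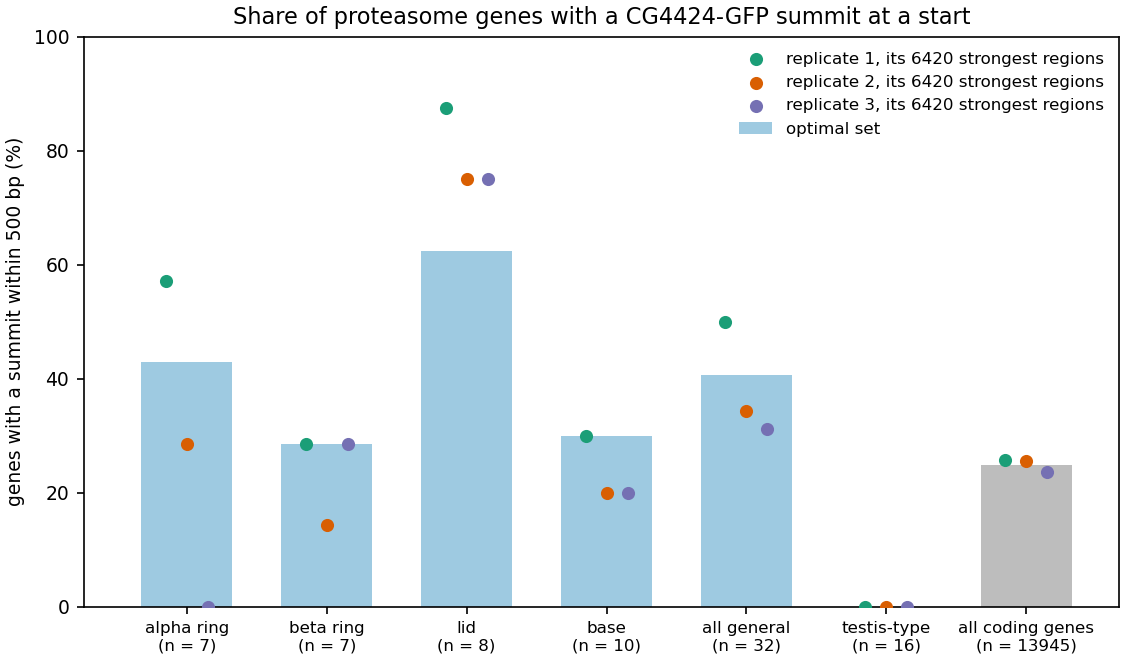
Share of genes with a summit within 500 bp of a start (y axis, %) for the 4 structural classes of general subunit genes, all general genes, testis-type paralogues and all coding genes (x axis, with n). Bars are the optimal set and points are the 6420 strongest regions of each replicate. The lid stands at 62.5%, testis-type genes at 0 and all coding genes at 24.9%.

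Core and regulatory particles were both represented. In the core particle 5 of 25 genes were occupied (20.0%, interval 6.83 to 40.7%), and in the regulatory particle 8 of 23 (34.8%, interval 16.4 to 57.3%), beside a background of 24.9%. When optimal regions also had to be among the strongest of both other replicates, counts could only fall. The core count was then 1 without replicate 1, 2 without replicate 2 and 3 without replicate 3, where the regulatory count was 6, 5 and 6. The optimal set still drew on all 3 replicates, so these counts do not show how far it rests on any 1 of them. The difference between the particles is carried in part by the testis-type genes, 11 in the core and 5 in the regulatory particle: among general genes the counts were 5 of 14 (35.7%) and 8 of 18 (44.4%). In the strongest regions of the replicates the general core genes averaged 26.2% ± 14.9 and the general regulatory genes 48.1% ± 6.42 (SD, n = 3). The intervals of the optimal shares overlap.

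Within the general genes the lid was the class with the most occupied members. The lid had 5 of the 8 genes under the symbol rule occupied (62.5%, interval 24.5 to 91.5%), against 24.9% of all coding genes. The alpha ring had 3 of 7, the beta ring 2 of 7 and the base 3 of 10, of which 1 of 6 ATPase genes. Sem1, a lid subunit whose symbol falls outside the rule, is not counted here and had no optimal summit within 500 bp of a start. All 8 lid genes under the rule had a summit in all 3 whole lists, where 45.2%, 52.5% and 49.7% of all coding genes had one. In the strongest regions of replicates 1, 2 and 3, summits lay at 7, 6 and 6 of the 8 lid genes. Of all coding genes 25.8%, 25.6% and 23.6% had one there. For the base the same counts were 3, 2 and 2 of 10, for the alpha ring 4, 2 and 0 of 7, and for the beta ring 2, 1 and 2 of 7. The split into lid and base was made after these values were known, the same genes are counted in each list, and the intervals of the 4 classes overlap.

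The alpha ring shapes the gate of the barrel, and its members were occupied at modest rank. Prosalpha4 (FBgn0004066, X) had a signal value of 242.9, rank 4572 of the 6420 optimal regions. Its summit lay 319 bp upstream of its start and ranked 3857, 4786 and 9286 in the lists of replicates 1, 2 and 3. A lower summit 62 bp upstream, with 175.8, was just outside the optimal set, whose lowest signal is 186.2. Replicates 1 and 2 thus held Prosalpha4 among their 6420 strongest regions and replicate 3 did not. Prosalpha6 (FBgn0250843, 2L) had 200.6 at rank 5882, with its summit 106 bp upstream. Its ranks of 2672, 10252 and 7464 make it one of the least even members between replicates, high in replicate 1 alone. Prosalpha2 (FBgn0086134, 3R) had 191.5 at rank 6222, 116 bp upstream, and ranked 4472, 6029 and 10915 in the replicates. All 3 genes had their best rank in replicate 1.

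The other alpha genes, apart from Prosalpha1, had regions below the optimal threshold. In the pooled list Prosalpha7 had 152.1 at 28 bp upstream, Prosalpha3 had 135.2 at 92 bp upstream and Prosalpha5 had 128.3 at 22 bp upstream. Each of these 3 had a summit in every replicate list, but that of replicate 3 at Prosalpha5 lay elsewhere, 176 bp inside the gene. Prosalpha3 ranked 4805, 10682 and 11685, Prosalpha5 ranked 10144, 8262 and 11633, and Prosalpha7 ranked 8141, 7376 and 14753 in replicates 1, 2 and 3. Prosalpha1 had no summit in any list, but it and its paralogue Prosalpha1R are close, near-identical copies. Every 36-base word within 500 bp of their starts (100%) occurs more than once in the genome's arms, so reads there cannot be given to 1 copy and both genes are uncertain.

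Beta subunits do the cutting, and 2 of the 7 general beta genes were occupied (28.6%, against 24.9% of all coding genes). Both are among the 3 catalytic ones, too few to compare with the other beta genes. Prosbeta2 (FBgn0023174, 3L), the trypsin-like subunit, had a signal value of 397.8 at rank 2344, 141 bp upstream, the highest of the core particle. Its ranks of 1822, 2808 and 2407 in replicates 1, 2 and 3 were within 1.54 times of each other, so all replicates placed it high. Prosbeta1 (FBgn0010590, 2R), the caspase-like subunit, had 224.1 at rank 5066, 55 bp upstream. It ranked 4620, 6496 and 6171, just inside the strongest 6420 in replicates 1 and 3 and just outside in replicate 2. Prosbeta5, the chymotrypsin-like subunit, had a summit in the list of replicate 1 only, with a signal of 22.4 where that list ends at 22.27.

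Among the structural beta subunits, Prosbeta3 had a pooled region of 111.6, 9 bp upstream, and replicate ranks of 18667, 11906 and 12513. Prosbeta7 had summits in replicates 2 and 3 only, at ranks 13950 and 14127. They lay in regions that do not overlap, 56 and 459 bp upstream of the nearest start. Prosbeta4 and Prosbeta6 had none in any list. The promoter of Prosbeta6, printed above, holds TATCGATA 40 bp upstream of its start.

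The lid holds the strongest members of the family. Rpn5 (FBgn0028690, 3R), a scaffold subunit, had 2 optimal summits, one of 870.7 at rank 577 and 264 bp upstream, the other of 617.7 at rank 1130 and 65 bp upstream. The stronger ranked 441, 806 and 571 in replicates 1, 2 and 3 and the weaker 1141, 1718 and 951. Every replicate placed both well within its strongest regions, and the stronger lies above 91.0% of the optimal regions. The stronger summit lies in an intron of the longer transcript of the divergent gene Hat1, and the weaker between the starts of Hat1 and Rpn5. Rpn3 (FBgn0261396, 2L), another scaffold subunit, had 803.2 at rank 679, 21 bp upstream. It ranked 1018, 616 and 644 in the replicates, high in all 3. The printed Rpn3 promoter contains a direct repeat of 65 bases, beginning at bases 1 and 79, with the summit at base 150 just past the second copy. These 2 copies are the only ones in the chromosome arms, and 8.51% of the 36-base words within 500 bp of the Rpn3 starts occur more than once, the second largest share among the occupied and unoccupied genes after the Prosalpha1 pair. Its part in the signal was not tested.

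Rpn11 (FBgn0028694, 2L), the enzyme of the lid that cuts ubiquitin chains off substrates, had 436.6 at rank 2017, 213 bp upstream. Its ranks of 1672, 1658 and 2516 were high in all 3 replicates, and no other gene starts within 500 bp of the summit. Rpn6 (FBgn0028689, 2R), also a lid subunit, had 260.9 at rank 4201, 99 bp upstream of its inner start and within its longer transcript. It ranked 3175, 3010 and 12074, so replicate 3 stood apart with the widest spread of ranks among the occupied genes, 4.01 times. Rpn7 (FBgn0028688, 3R) had 238.9 at rank 4666, 162 bp upstream, and the most even ranks of the 13, at 5044, 4186 and 5115.

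The remaining lid genes under the symbol rule, Rpn8, Rpn9 and Rpn12, were not in the optimal set. Rpn12 came closest, with a pooled signal of 172.0, 91 bp upstream, and replicate ranks of 6206, 10301 and 5752. Rpn9 had 153.2, between its 2 annotated starts and 214 bp inside the longer transcript. Its replicate summits lay 181, 123 and 183 bp upstream of the inner start and ranked 13936, 7769 and 7038. Rpn8 (2R), the partner of Rpn11, had signals of 78.3, 132.2 and 70.2 in replicates 1, 2 and 3. The summits lay between the 2 annotated starts of Rpn8, 192, 196 and 201 bp upstream of the inner one. These ranked 3668, 3164 and 5801, within the 6420 strongest of every replicate and above several occupied members, yet no region of the pooled list overlaps them. Of 4942 regions of replicate 1 that are among the strongest in all 3 replicates, 8 have no pooled region, and 1 of the 8 is at Rpn8. With Rpn8, 7 general genes were among the strongest regions of all 3 replicates, while 6 of the 13 occupied genes were.

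In the base, the ubiquitin receptor genes Rpn10 and Rpn13 and 1 ATPase gene were occupied. Rpt5 (FBgn0028684, 3R), an ATPase, had 248.9 at rank 4427, 55 bp upstream, and ranked 5135, 4550 and 3735 in the replicates, all within the strongest 6420. Rpn13 (FBgn0033886, 2R), a ubiquitin receptor, had 223.7 at rank 5095, 182 bp upstream. Its highest regions ranked 6559, 5080 and 3028, but that of replicate 1 belongs to a lower summit 384 bp upstream, which had 170.6 in the pooled list. Rpn10 (FBgn0015283, 3L), another ubiquitin receptor, had 189.3 at rank 6318, 10 bp upstream of one of its starts and close to the lowest optimal signal. It ranked 5349, 7362 and 6727, within the strongest regions in replicate 1 only.

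The other ATPase genes were weaker or absent. Rpt2 had a pooled region of 157.0, 56 bp inside the gene, with ranks of 11433, 7682 and 7223, and Rpt6 one of 116.5, 25 bp upstream, with 12813, 9175 and 12689. A second Rpt6 summit, 320 bp upstream with 104.8 in the pooled list, was the higher one in replicate 3, at rank 11021. Rpt3 had a summit in replicate 1 only, at rank 5437, and Rpt4 in replicates 1 and 2, at 16445 and 15664. Rpn2, a scaffold of the base, had a pooled region of 95.5, 21 bp upstream, and summits in replicates 2 and 3 at ranks 8521 and 17919. Rpt1 and Rpn1, a scaffold that also binds ubiquitin, had no summit in any list.

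**Figure D2:**
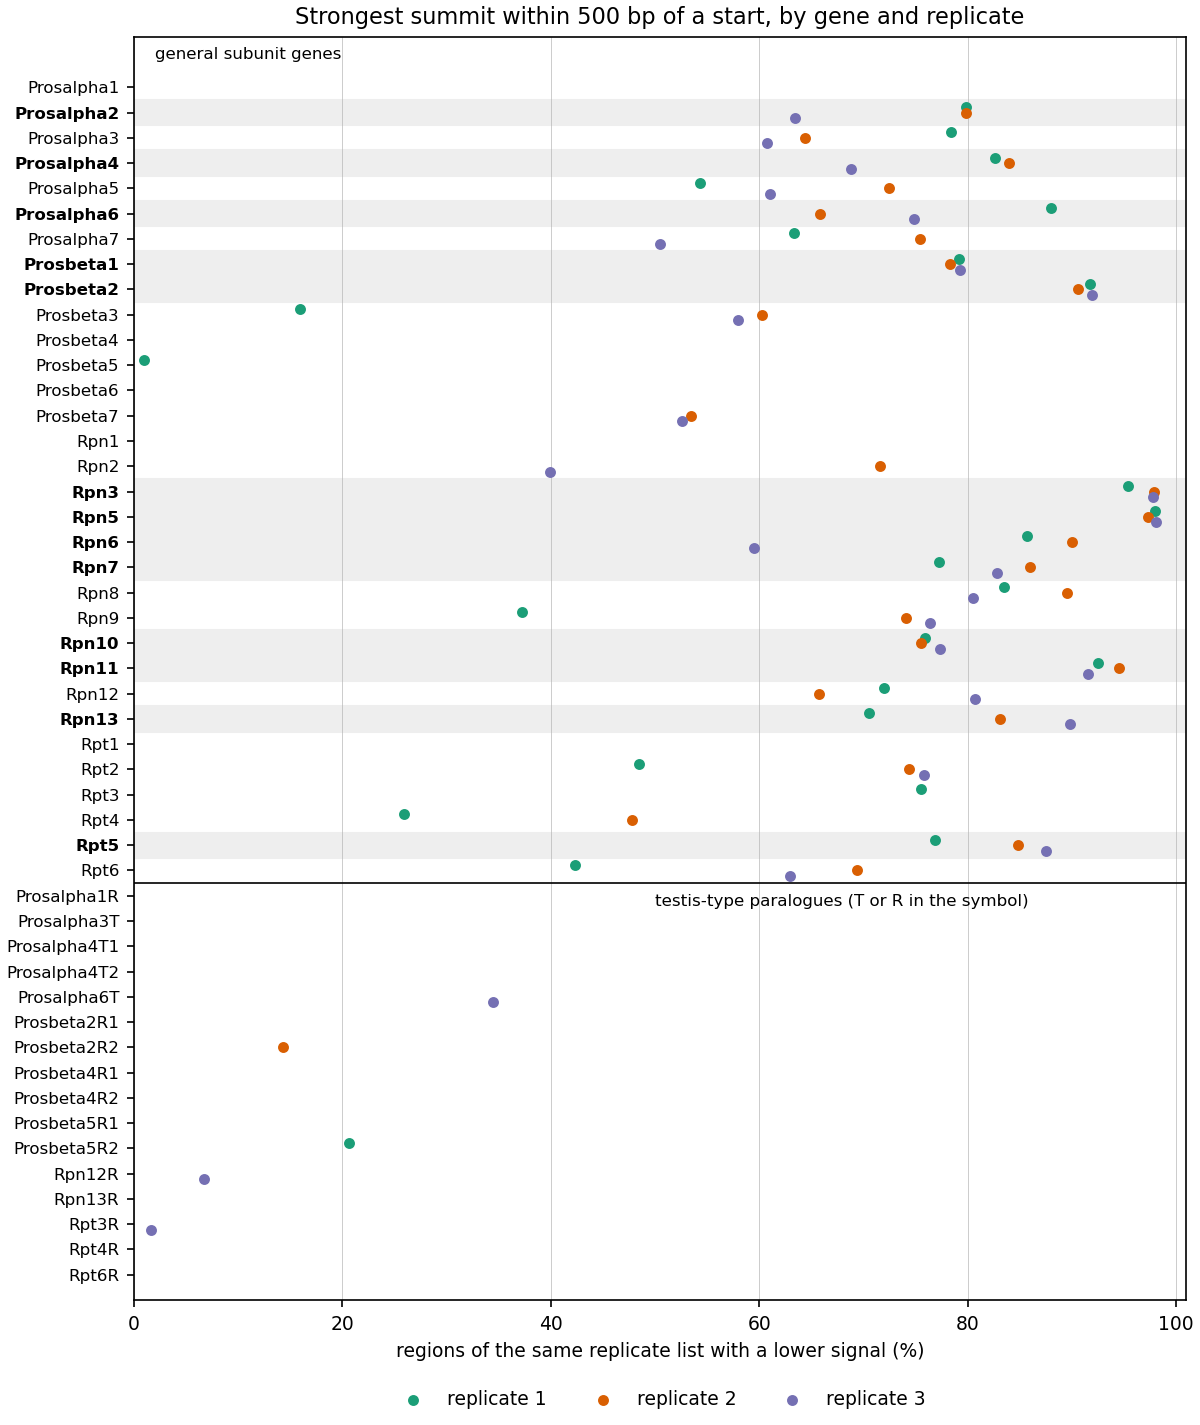
Strongest summit within 500 bp of a start for each of the 48 genes (rows) in the list of each replicate (points), as the share of that list with a lower signal (x axis, %). Bold names on grey bands are the 13 occupied genes, and a missing point means no summit. Rpn5 and Rpn3 stand at the right in all 3 replicates, Rpn8 stands at 83.5, 89.5 and 80.5% without a band, and the 5 testis-type genes with a point have 1 each.

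Testis-type paralogues had isolated, weak regions at most. Of the 16, 11 had no summit in any list: Prosalpha1R, Prosalpha3T, Prosalpha4T1, Prosalpha4T2, Prosbeta2R1, Prosbeta4R1, Prosbeta4R2, Prosbeta5R1, Rpn13R, Rpt4R and Rpt6R. The other 5 had a summit in a single replicate. Prosalpha6T ranked 19511, Rpn12R 27790 and Rpt3R 29297 in replicate 3, Prosbeta2R2 ranked 25712 in replicate 2 and Prosbeta5R2 17632 in replicate 1. The highest of these, at Prosalpha6T, lies above 34.5% of its list. General genes that have a testis-type paralogue were occupied in 4 of 12 cases (33.3%, interval 9.92 to 65.1%) and those without in 9 of 20 (45.0%), beside 24.9% of all coding genes. The 12 include the uncertain Prosalpha1, and 1 of them was among the strongest regions of all 3 replicates. The interval overlaps the share of up to 18.8% that 0 of 16 testis-type genes allows. These counts thus do not settle whether the gap holds within the families that have both. Expression was not measured in these samples.

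All occupied members had their summit upstream of the nearest start. The summits of the 13 genes lay 10 to 319 bp upstream with a median of 116 bp upstream, and 10 of 13 (76.9%) within 200 bp. For Rpn6 and Rpn10 that start was an inner one, and the summit lay inside the longer transcript. Over all 3469 occupied coding genes, 89.5% had the summit upstream, 57.2% had it at most 200 bp upstream, and the median was 139 bp upstream. In the strongest regions of replicates 1, 2 and 3 the family's median lay 113.5, 142.0 and 170.0 bp upstream, against 137.0, 134.0 and 146.0 bp for all coding genes there.

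Apart from the 4 leading genes, occupied members sat among the 3210 optimal regions of lower signal. The median signal value of the 13 genes was 242.9, against 374.3 over all occupied coding genes, and 9 of 13 (69.2%) lay in those lower 3210, against 40.2% of all occupied coding genes. Rpn5, Rpn3, Rpn11 and Prosbeta2 were the 4 genes above them. In the 6420 strongest regions of replicates 1, 2 and 3, the counts among the lower 3210 were 10 of 16, 5 of 11 and 5 of 10 members, against 1380 of 3594, 1505 of 3571 and 1341 of 3285 coding genes. In the optimal set the median occupied member lay above 28.8% of the regions, against 60.0% for all occupied coding genes. The set was also filtered on the strongest regions of all replicates but 1. Without replicate 1 these values were 63.5% and 67.4%, without replicate 2 they were 63.5% and 67.8%, and without replicate 3 they were 34.6% and 66.3%. The lean was much smaller under the filters without replicate 1 or 2. The filter removes weaker regions by construction, so it cannot show whether the lean rests on a replicate. The median signal was 224.1 over the 5 occupied core genes and 254.9 over the 8 occupied regulatory genes.

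**Figure D3:**
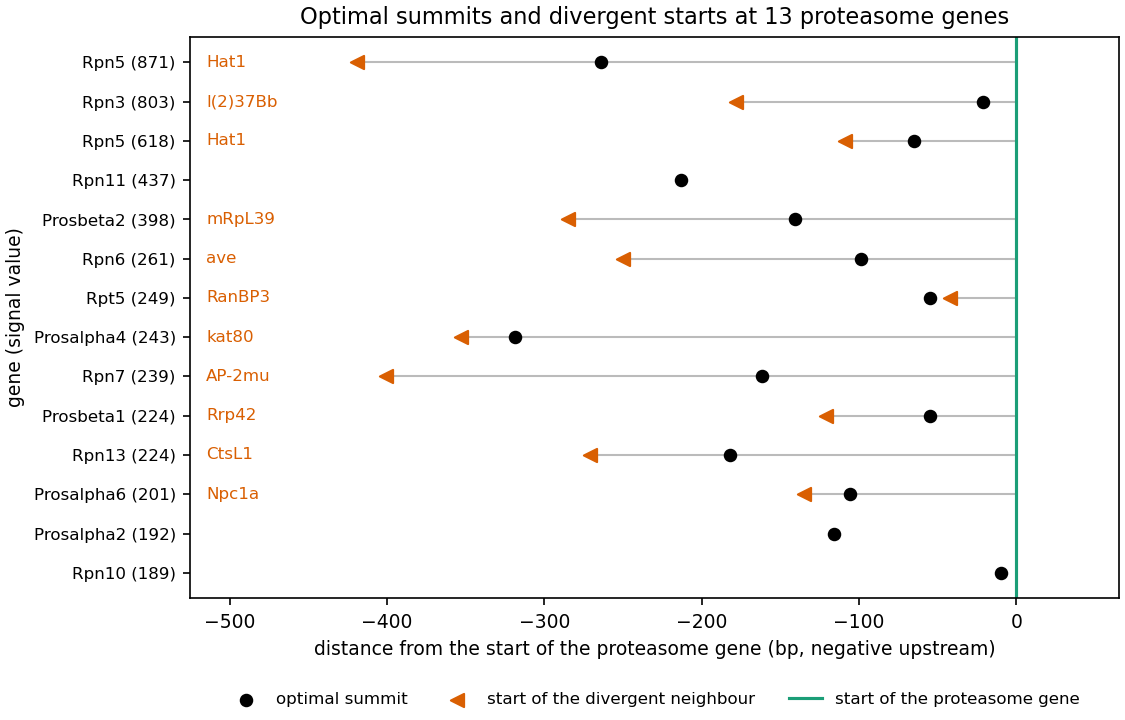
Optimal summits (black points) at the 13 occupied genes, as distance from the nearest start of the proteasome gene in bp (x axis, negative upstream), with the start of the divergent neighbour as a triangle. Rows are ordered by signal value, in parentheses, and Rpn5 has 2 rows. All 14 summits lie to the left of the start, and 10 of the 13 genes have a divergent neighbour.

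Many of these summits lie in promoters shared with a neighbour. At 10 of the 13 genes a coding gene on the other strand starts within 500 bp of the summit, so the region cannot be given to 1 of the 2 genes. Shared promoters are common among occupied genes in general. Counted between starts, 10 of the 13 had a divergent coding gene within 500 bp, as did 1835 of all 3469 occupied coding genes. For Prosbeta2 the neighbour is mRpL39 (a mitochondrial ribosomal protein), 285 bp between starts, and the summit lies 141 bp from one and 144 bp from the other, near the middle of the printed sequence. For Rpt5 it is RanBP3 (a nuclear export cofactor), and the summit lies 13 bp inside that gene. Rpn5 faces Hat1 (a histone acetyltransferase), Rpn3 faces l(2)37Bb, Rpn6 faces ave, Rpn7 faces AP-2mu (a clathrin adaptor subunit) and Rpn13 faces CtsL1 (a lysosomal protease). Prosalpha4 faces kat80 (a katanin subunit), Prosalpha6 faces Npc1a (a sterol transporter) and Prosbeta1 faces Rrp42 (an exosome subunit). The summit was nearer the neighbour's start at Prosalpha4, Prosalpha6, Rpn5, Rpn13 and Rpt5, and nearer the proteasome gene at Prosbeta1, Prosbeta2, Rpn3, Rpn6 and Rpn7. Prosalpha2, Rpn10 and Rpn11 had no other start within 500 bp of the summit. Among the pooled regions below the threshold, the same distance took in Iru at Prosbeta3, CG1671 at Prosalpha7, dgt3 at Prosalpha3, Slbp at Rpn2 and CG13599 at Rpt2, and no other gene at Prosalpha5, Rpn12 and Rpt6.

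Divergent neighbours are common in the family, and general genes with one were occupied near the rate of all coding genes with one. The start of a divergent coding gene lies within 500 bp at 21 of 32 general genes (65.6%) and 3 of 16 testis-type genes (18.8%), against 27.4% of all coding genes. General genes with such a neighbour were occupied in 10 of 21 cases (47.6%), against 48.1% of all coding genes with one. Without such a neighbour 3 of 11 general genes were occupied (27.3%), against 16.1% of all other coding genes. Testis-type genes were at 0 of 3 with such a neighbour and 0 of 13 without. How far the arrangement accounts for the share of general genes was not tested.

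**Figure D4:**
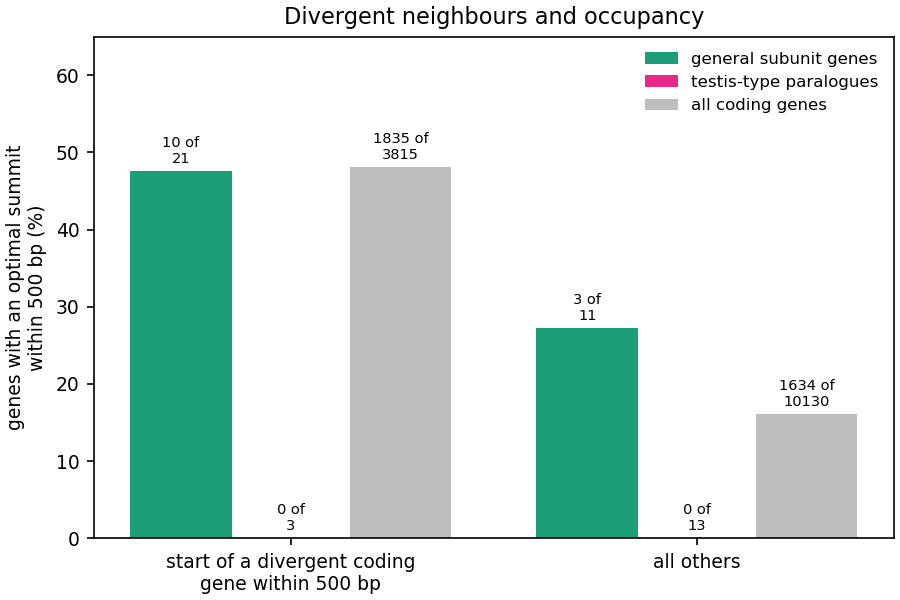
Share of genes with an optimal summit within 500 bp of a start (y axis, %), for genes with the start of a divergent coding gene within 500 bp (left) and all others (right), with counts above the bars. General subunit genes stand at 47.6% and 27.3%, testis-type paralogues at 0 in both, and all coding genes at 48.1% and 16.1%.

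The palindrome TATCGATA was searched in the 300 bp upstream of all starts, and in windows of 50 bp on either side of summits. It stood upstream of 10 of 32 general genes (31.2%) and of 1 testis-type gene, Rpt3R, against 9.54% of all coding genes. Of the 13 occupied genes 6 held it (Prosalpha6, Prosbeta1, Prosbeta2, Rpn3, Rpn13 and Rpt5), and of the 19 general genes without an optimal summit 4 did (Prosalpha3, Prosalpha5, Prosbeta6 and Rpn12). The summits themselves mostly lay away from it. Only those of Rpt5, 13 bp away, and Rpn13, 31 bp away, had it in their window, 2 of 14 summits, against 4.06% of 2832 promoter summits. At Prosbeta2 it stands at both ends of the printed sequence, 115 and 135 bp from the summit, and at Prosalpha6 94 bp from it. The Motif 1 core GGTCACAC stood upstream of 4 general genes (Prosbeta3, Prosbeta7, Rpn8 and Rpn9), none of them occupied, against 5.64% of all coding genes.

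The shorter CGATA, which lies within TATCGATA, was common upstream of the general genes. It stood upstream of 27 of 32 general genes (84.4%) and 9 of 16 testis-type genes, against 52.5% of all coding genes. Of the 13 occupied genes 11 held it, and of the 19 general genes without an optimal summit 16 did. At the 14 summit windows CGATA was found in 4 (23.0% of all promoter summits hold it), TATAAA in 4 (21.7%), CANNTG in 2 (34.3%), GAGAG in 1 (8.86%), and TGACNNNGC, the core of the element bound by CNC and Maf factors, in 0 (2.22%). All were searched on both strands. Upstream, TGACNNNGC stood at 2 general genes, Prosbeta3 and Prosbeta7, neither occupied, and at the testis-type gene Prosbeta4R2, against 10.2% of all coding genes. The summit windows had a median GC content of 29.2%, between 20.8 and 49.5%, against 32.7% over all promoter summits.

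Several genes that work with the proteasome had optimal regions, the strongest of them close in signal to those of Rpn5 and Rpn3. The genes were listed by symbol with earlier results of these data known, and the list also took in COP9 signalosome and eIF3 subunits. Of 47 listed symbols 42 matched the annotation, and 22 of these (52.4%) had an optimal summit within 500 bp of a start, against 24.9% of all coding genes. The 22 include 3 of 8 COP9 and 4 of 8 eIF3 subunits, so the share is not one of proteasome partners alone. Among assembly factors and activators, with the lid subunit Sem1 listed among them and not occupied, 5 of 9 were occupied. CG12321 had 844.7 at rank 610, 177 bp upstream. Pomp, the maturation factor that brings the beta ring together, had 663.5 at rank 1005, 219 bp upstream. Lower signals lay at ntc (343.7), at the proteasome regulator PI31 (307.3) and at CG11885 (246.6). Of the 5 receptors and deubiquitinases 3 were occupied: Uch-L5 (241.6), Ubqn (230.7) and Rad23 (200.3). The unfoldase group had 1 of 4, the cofactor p47 (255.0).

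Regulators and ubiquitin genes also had regions. The transcription factor gene cnc, whose product raises proteasome gene expression, had 388.1, 356 bp inside the gene, and Keap1, its inhibitor, had 245.6, 126 bp upstream, while maf-S had none. Ubiquitin genes and the activating enzyme were occupied in 4 of 5 cases: RpS27A (450.9), Ubi-p63E (419.9), Ubi-p5E (284.1) and Uba1 (243.3). The COP9 signalosome and the translation factor eIF3 have architectures related to the lid. Among the COP9 subunits 3 of 8 were occupied, CSN5 (501.5), CSN3 (309.1) and CSN1b (256.3), and among the eIF3 subunits 4 of 8, eIF3h (805.8), eIF3c (758.0), eIF3m (335.8) and eIF3a (309.5).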

How the data were processed

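The members, the gene lists and the sequence elements were chosen with earlier results of these data known. Per the deposited notes, the authors made each list of regions from alignments of the immunoprecipitated sample and of a control, per replicate and on pooled reads, and took the optimal set from these. The signal values are those of the authors' region caller, as deposited, with no stated scale. They were compared within a list, and by rank between lists. The labels and deposited notes name neither the aligner nor the region caller, and the list of replicate 2 stops at 30000 regions. Positions are on dm6 and counted from 1. Distances used all transcript starts of Ensembl release 115 on the main arms, and sequence came from the RefSeq assembly. Windows of 250 and 1000 bp, other lists, other ways of assigning summits and filters on the strongest regions of all replicates but 1 were tried. Uniqueness was scored with 36-base words.

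Every occupied member, every pathway gene with an optimal summit, every member with a pooled region and every neighbour within 500 bp of such a summit is named, except 1 neighbour that is not reported here. No tests were made, and no paired analysis was needed with 1 group. Intervals are exact Clopper-Pearson intervals at 95%, and the limit for a count of 0 is 3 counts of the total. Both cover counting error only. The search was tested on simulated regions with Python 3.11.15, pandas 2.3.3, numpy 2.4.6, scipy 1.17.1 and bedtools 2.31.1, and figures were drawn with matplotlib 3.10.9.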

Additional observations from a re-analysis of the deposited data

How the results depend on the processing

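The testis-type count stayed at 0 with the window of 1000 bp and in the relaxed pooled list, the alternatives that widen the search, while most others could only remove genes. Over the 11 alternatives 44 of 77 recomputed values stayed close, counts within 1.5 times and medians within 1 SD of the replicates. The 44 include all 11 testis-type counts, which were 0 throughout. The general counts repeat those of the whole family, so the 77 values are not separate and 44 overstates the stability. The side of the background was not stable: of 9 settings with a background share, the family stood above it in 2 (with the reported setting, and with 12 genes, against 20.0% of all coding genes, in the window of 250 bp) and below it in 7. With the 3210 strongest optimal regions, 4 genes were occupied (8.33%), 1 of the core and 3 of the regulatory particle, all 4 general, at a median position of -177 bp (negative upstream) and above 79.0% of the optimal regions. Of all coding genes 14.9% were occupied in that set. In the relaxed pooled list the counts were 22 genes, 9 core, 13 regulatory and 22 general, the median position was -73 bp, and the median region lay above 79.17% of that longer list. With each region given to the gene of the nearest start only, 8 genes were occupied (16.7%), 3 core and 5 regulatory, all 8 general, against 18.4% of all coding genes. Of the 22 genes with no other start within 1000 bp, 3 were occupied, 1 core and 2 regulatory, all 3 general (10 of the 22 are general), and their median region lay above 3.084% of the optimal set.

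Optimal regions were also required to overlap the strongest of both other replicates, which keeps fewer regions by construction. The optimal set, its signals and its ranks still drew on all 3 replicates. Leaving out a replicate in this way gave 7 to 9 occupied genes, all general, 1 to 3 in the core particle and 5 to 6 in the regulatory particle. The shares were 14.6% without replicate 1, 14.6% without replicate 2 and 18.8% without replicate 3, against 21.0%, 20.8% and 21.6% of all coding genes. The median summit position was -162 to -141 bp, and the median region lay above 34.56 to 63.49% of the optimal set. Prosbeta2, Rpn3, Rpn5, Rpn7, Rpn11 and Rpt5 stayed occupied under each of these filters. No paired analysis was possible because all samples form 1 group. Depth was not given, so a missing region is not shown to be an absence of binding.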
